A study of Mus musculus with 8 samples.

Results

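The CDK inhibitors and the D cyclins are 9 genes that set the activity of the kinases at the start of the cell cycle, and here their RNA was measured in primary mouse embryonic fibroblasts (MEFs) with and without hypoxia. The genes are Cdkn1a and Cdkn1b of the Cip/Kip family, Cdkn2a, Cdkn2b, Cdkn2c and Cdkn2d of the INK4 family, and Ccnd1, Ccnd2 and Ccnd3. They were chosen by name, and their values are those of the array rows (probe sets, most of them directed at single exons) whose platform annotation names 1 of these genes and no other. There were 84 such rows among 307991 rows that name 1 gene and 641130 rows in all, and 74 of them passed a filter on dim rows. Another 3 rows of Ccnd3 that also name its pseudogene Ccnd3-ps were left out. All 9 genes were among the 18848 genes tested.

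The MEFs were primary cells with no transgene or deletion named in the labels, grown on 100 mm dishes. The hypoxia group was kept in 1% oxygen for 24 h and the normoxia group in atmospheric oxygen for the same time, with 4 arrays in each group. Amplified, biotin-labelled RNA was read on Mouse Exon 1.0 ST arrays, and the deposited intensities are given here on the log2 scale. The methods call the replicates biological, but nothing in the labels ties them to separate embryos or cell preparations, so the p-values measure the spread between these samples, which may in part be technical.

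D cyclins bind the kinases Cdk4 and Cdk6, which phosphorylate the retinoblastoma protein and its relatives and thereby release E2F factors that switch on genes for DNA synthesis. INK4 proteins bind Cdk4 and Cdk6 directly and displace the D cyclins, while the Cip/Kip proteins p21 and p27 block kinases that carry cyclin E or cyclin A. In cultured MEFs, products of the Cdkn2a locus and p21 are known for accumulating with passage and ending proliferation, and p27 and p21 are known to be held at several further levels, among them protein turnover, which RNA does not show.

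Promoter windows of RefSeq (GRCm38.p6) were at hand for 7 of the 9 genes, 11 windows in all, and are given here as the 250 bases before each annotated start. The windows of the neighbouring genes Cdkn2b and Cdkn2a on chromosome 4 are shown because Cdkn2b had the lowest p of the 9 genes, although it was not called, and because Cdkn2a next to it has more than 1 start. The Cdkn2a and Cdkn2b differences were not shown to differ from each other, as given below. Cdkn2a has 2 windows, one before its upstream first exon, from which the Arf transcript begins, and one before the downstream first exon of the Ink4a transcript. All 3 lie on the minus strand and are written 5′ to 3′, and capitals mark the core of the hypoxia response element, ACGTG or GCGTG, on either strand.
Cdkn2b, chr4:89311033-89311282: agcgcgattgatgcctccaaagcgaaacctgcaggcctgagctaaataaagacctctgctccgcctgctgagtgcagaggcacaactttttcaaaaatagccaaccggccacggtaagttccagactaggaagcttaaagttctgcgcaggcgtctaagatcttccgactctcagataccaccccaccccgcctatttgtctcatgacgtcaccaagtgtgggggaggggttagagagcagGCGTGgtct
Cdkn2a, upstream start, chr4:89294620-89294869: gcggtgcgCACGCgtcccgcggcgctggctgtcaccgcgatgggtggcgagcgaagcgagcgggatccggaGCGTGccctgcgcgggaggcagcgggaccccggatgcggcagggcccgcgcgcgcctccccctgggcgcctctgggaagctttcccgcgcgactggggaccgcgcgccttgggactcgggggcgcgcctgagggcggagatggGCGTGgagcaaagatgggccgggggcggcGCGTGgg
Cdkn2a, downstream start, chr4:89282193-89282442: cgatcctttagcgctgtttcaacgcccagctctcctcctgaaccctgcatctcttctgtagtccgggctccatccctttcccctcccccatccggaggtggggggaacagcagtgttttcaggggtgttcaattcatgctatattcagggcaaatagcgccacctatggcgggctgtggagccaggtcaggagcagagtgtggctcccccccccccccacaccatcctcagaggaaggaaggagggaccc
The Cdkn2b window holds 1 core, 5 bases from the start, the upstream Cdkn2a window holds 4 and the downstream one holds 0. A core occurs in 38.6% of all 32851 RefSeq promoter windows cut in the same way (ACGTG in 16.6% and GCGTG in 28.2%). It occurs in 8 of the 11 windows of these genes, and some of the genes have 2 windows. The difference was not tested, and the windows were not matched for GC content, which ran from 42.8% to 78.4% in the 11. An ACGTG inside a CACGTG E-box was counted as a core as well. The E2F-type sites TTTCGCGC and TTTGGCGC, searched on both strands, were in none of the 11 windows and in 0.256% and 0.417% of all windows. Other forms of the E2F site were not searched, so the windows may still hold some. A match to letters is a description and not a measured site. The rows carry no coordinates here, so the 9 rows of Cdkn2a could not be divided between its transcripts.

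The label was set against marker genes. All 11 fibroblast markers lay above the median level of 318 olfactory, vomeronasal and taste receptor genes (2.996), which fibroblasts are not known to express and which stand for background here. So did 27 of 28 markers of epithelial, endothelial, blood and neural cells, so this cut does not separate cell types. The fibroblast markers ranged from 4.996 (Lum) to 10.5 (Fn1) and the others from 2.97 to 5.07, so the ranges overlapped, and levels of different genes are not on a common scale on these arrays. The fibroblast markers' summed level ran from 12.12 to 12.17 in normoxia and from 12.03 to 12.12 in hypoxia, and 0 of them passed the test. The 6 hypoxia control genes, such as Bnip3, a HIF target in mitochondrial autophagy, were all higher in hypoxia, by 0.87 to 3.40 on the log2 scale. Of 28 markers of other cell types, 1 passed the test, the keratin Krt19, which was 1.48 higher in hypoxia (adjusted p = 0.00486, limma), and its part in the results below was not tested. Fewer cells of a type and less RNA per cell cannot be told apart in such bulk samples. Arrays within normoxia correlated at 0.923 to 0.944, arrays within hypoxia at 0.859 to 0.878, and arrays of different groups at 0.876 to 0.905. The median gene lay at 3.95 to 4.06 in normoxia and at 3.80 to 3.88 in hypoxia, so that 75.7% of all genes had a negative log2 fold change and the median over all genes was -0.19. Every difference below stands beside that median.

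None of the 9 genes passed the test for a difference between hypoxia and normoxia. Differential expression was tested with limma and Benjamini-Hochberg adjustment over all genes at a threshold of 0.05, by which 1.33% of all genes were called (0.531% higher and 0.796% lower in hypoxia), and 0 of the 9 were among them. The adjusted p-values of the 9 ran from 0.152 to 0.965. At an unadjusted p under 0.05 there was 1 of 9, Cdkn2b, against 23.4% of all genes. Of the 9 log2 fold changes 7 were negative and 2 positive, close to the 75.7% negative over all genes, and their median of -0.18 lay next to the median of -0.19 over all genes. The 95% intervals of all 9 lay between 0.519-fold and 1.48-fold for gene values taken as the mean of rows. Single rows went further. Taken by the brightest row alone, the gene value left its interval for Cdkn2d (1.26, as given below), Ccnd1 (-0.57) and Ccnd3 (0.48). Cdkn2c left its own only just (0.3155 against a bound of 0.3141). With the median of rows in place of the mean, Cdkn2a (-0.37) lay outside its interval.

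**Figure D1:**
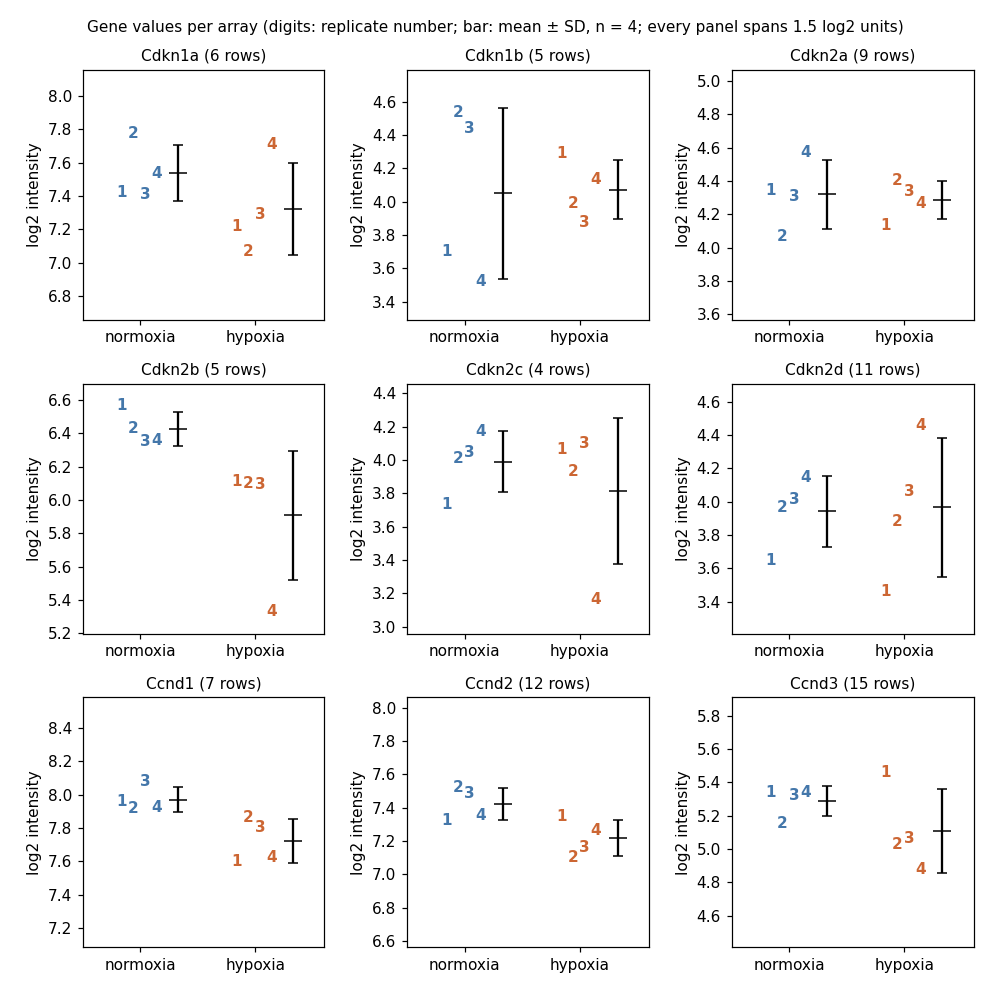
Log2 intensity of each of the 9 genes (vertical axes, each spanning the same 1.5 log2 units) on the 4 normoxia arrays (blue) and the 4 hypoxia arrays (orange). Digits are replicate numbers and bars are the mean ± SD (n = 4). The groups overlap for every gene except Cdkn2b and Ccnd1.

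**Figure D2:**
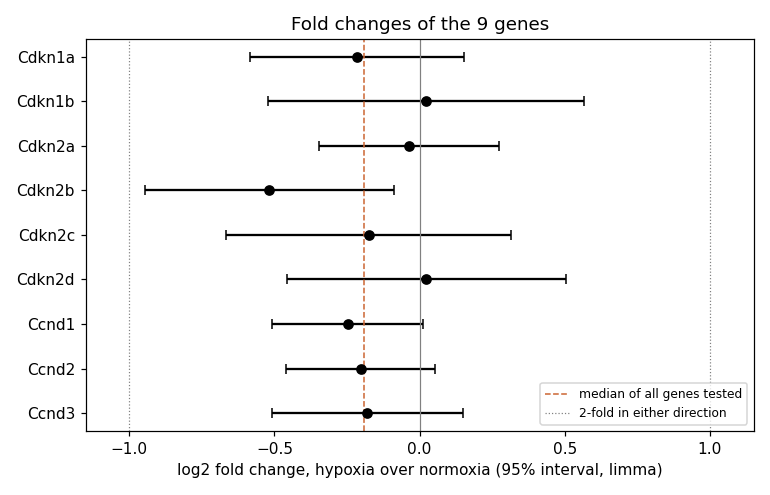
Log2 fold change, hypoxia over normoxia, of each gene with its 95% interval from limma (horizontal axis). The dashed line is the median of all genes tested, -0.19, and the dotted lines mark 2-fold differences, which no interval reaches.

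Cdkn1a encodes p21, the CDK inhibitor best known as a target of p53. Its level was 7.42, 7.77, 7.41 and 7.54 on the 4 normoxia arrays and 7.22, 7.06, 7.29 and 7.71 on the 4 hypoxia arrays, each value the mean of 6 rows. Hypoxia arrays 1 to 3 lay below all normoxia arrays and hypoxia array 4 lay among them, so the groups overlapped. Hypoxia over normoxia, the log2 fold change was -0.22 ± 0.16 (SE, 95% interval -0.59 to 0.15, adjusted p = 0.441, limma). All 6 rows had a negative log2 fold change, from -0.43 to -0.05, as did 65.5% of all rows that passed the filter. In 1 of the 6 all hypoxia arrays lay below all normoxia arrays, against 6.75% of all such rows.

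Cdkn1b encodes p27, which is best known for rising in resting and contact-inhibited cells. Its level was 3.70, 4.54, 4.44 and 3.52 in normoxia and 4.29, 3.99, 3.88 and 4.14 in hypoxia (5 rows). The normoxia arrays fell into a low pair, replicates 1 and 4, and a high pair, replicates 2 and 3, and every hypoxia array lay between the pairs. The log2 fold change of 0.02 ± 0.24 (SE) had the widest interval of the 9 genes, -0.52 to 0.57 (adjusted p = 0.965, limma). Its rows disagreed, with 3 negative and 2 positive values from -0.94 to 0.67.

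Among the INK4 genes, Cdkn2b had the lowest p. Cdkn2b encodes p15, an inhibitor of Cdk4 and Cdk6 known for its induction by TGF-beta. Its level was 6.57, 6.43, 6.35 and 6.35 in normoxia and 6.11, 6.10, 6.09 and 5.33 in hypoxia (5 rows). All hypoxia arrays lay below all normoxia arrays, 3 of them within 0.02 of each other and replicate 4 far below. The log2 fold change was -0.52 ± 0.19 (SE, 95% interval -0.95 to -0.09), with an unadjusted p of 0.0229 and an adjusted p of 0.152 in limma. In the exact permutation test of this gene alone, two-sided over the 70 splits of 8 arrays, p was 0.0286, the smallest that 4 arrays against 4 allow. Without hypoxia replicate 4 the log2 fold change was -0.32.

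All 5 rows of Cdkn2b had a negative log2 fold change, from -0.84 to -0.18, where 65.5% of all rows that passed the filter did. The groups did not overlap in 2 of them, with hypoxia lower, against 6.75% of all such rows. In one, row 4723910, the normoxia arrays read 8.77, 8.40, 8.62 and 8.69 and the hypoxia arrays 8.37, 7.997, 8.01 and 7.84, a log2 fold change of -0.57. In the other, row 5043454, they read 4.74, 5.57, 4.84 and 5.04 against 4.62, 4.26, 4.03 and 3.93, a log2 fold change of -0.84 (row-level adjusted p = 0.264, limma). Hypoxia replicate 4 was the lowest array in each of the 5 rows.

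Cdkn2a encodes both the INK4 protein p16 and, from another reading frame, Arf, which protects p53. Its level was 4.34, 4.06, 4.31 and 4.57 in normoxia and 4.13, 4.40, 4.34 and 4.27 in hypoxia (9 rows), and the hypoxia arrays lay inside the range of the normoxia arrays. Between groups the log2 fold change was -0.04 ± 0.14 (SE, 95% interval -0.34 to 0.27, adjusted p = 0.891, limma). The sign of this value was not stable and turned positive when arrays were scaled in other ways. Of its 9 rows 5 were negative and 4 positive, from -0.53 to 0.56. The highest, row 4721278, had no overlap between groups, with 2.52 to 2.81 in normoxia and 3.002 to 3.67 in hypoxia, but its mean did not lie above 95% of the receptor rows (3.24).

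Cdkn2c encodes p18. Its level was 3.74, 4.01, 4.05 and 4.17 in normoxia and 4.06, 3.93, 4.10 and 3.16 in hypoxia (4 of its 10 rows, as 6 did not pass the filter). Hypoxia replicate 4 was again the lowest array, while the other 3 lay within the normoxia range. The log2 fold change was -0.18 ± 0.22 (SE, adjusted p = 0.643, limma) with all arrays and 0.04 without hypoxia replicate 4.

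Cdkn2d encodes p19, the INK4 protein that should not be confused with Arf. Its level was 3.64, 3.96, 4.01 and 4.14 in normoxia and 3.46, 3.88, 4.06 and 4.46 in hypoxia (11 of 12 rows), with the lowest and the highest array both in hypoxia. Its log2 fold change was 0.02 ± 0.21 (SE, adjusted p = 0.958, limma). The brightest row of this gene, 5413449, read 3.98, 5.63, 4.88 and 5.34 in normoxia and 5.90, 5.84, 6.45 and 6.66 in hypoxia, with no overlap between groups. Its log2 fold change of 1.26 ± 0.38 (SE) had the lowest p of the 74 rows (unadjusted p = 0.00849, adjusted p = 0.237 over all rows, limma), and the other 10 rows of Cdkn2d that passed the filter lay between -0.79 and 0.29. Taken by its brightest row alone, as an alternative to the mean of rows, Cdkn2d would stand at 1.26 and not at 0.02 (adjusted p = 0.171).

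Ccnd1 encodes cyclin D1, the D cyclin known for its induction by mitogens through Ras signalling. Its level was 7.96, 7.92, 8.08 and 7.92 in normoxia and 7.60, 7.86, 7.80 and 7.62 in hypoxia (7 rows). The groups did not overlap, although hypoxia replicate 2 came within 0.07 of the lowest normoxia array. The log2 fold change was -0.25 ± 0.11 (SE, 95% interval -0.51 to 0.01), with an unadjusted p of 0.0591 and an adjusted p of 0.231 in limma. The exact permutation test of this gene alone, two-sided, gave p = 0.0286, again the smallest that this design allows.

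All 7 rows of Ccnd1 were negative, from -0.57 to -0.07, and 3 had no overlap between groups. Of all rows that passed the filter, 65.5% were negative and 6.75% were lower without overlap. Row 4652674, the row with the largest difference, read 10.2, 9.92, 10.3 and 10.2 in normoxia and 9.69, 9.90, 9.62 and 9.16 in hypoxia. Row 4350513 read 9.17, 9.06, 9.34 and 9.24 against 8.81, 8.76, 8.76 and 8.61, and row 5043168 read 8.72, 9.10, 8.82 and 8.91 against 8.59, 8.61, 8.52 and 8.58. The other 4 rows lay between -0.12 and -0.07.

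Ccnd2 encodes cyclin D2. Its level was 7.33, 7.52, 7.48 and 7.35 in normoxia and 7.35, 7.10, 7.16 and 7.26 in hypoxia (12 rows), with hypoxia replicate 1 among the normoxia arrays and the other 3 below them. Ccnd2 had a log2 fold change of -0.20 ± 0.11 (SE, 95% interval -0.46 to 0.05, adjusted p = 0.306, limma). Of its rows 9 were negative and 3 positive, and none had groups without overlap.

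Ccnd3 encodes cyclin D3. Its level was 5.34, 5.15, 5.32 and 5.34 in normoxia and 5.46, 5.03, 5.06 and 4.88 in hypoxia (15 of 18 rows). Hypoxia replicate 1 was the highest array of all, and the other 3 hypoxia arrays were the lowest. For the gene as a whole the log2 fold change was -0.18 ± 0.15 (SE, adjusted p = 0.469, limma). Of the 15 rows that passed the filter 9 were negative and 6 positive, from -1.38 to 0.80. The brightest row, 4475618, went the other way from the gene. It read 6.82, 7.29, 7.20 and 7.06 in normoxia and 7.59, 7.46, 7.53 and 7.69 in hypoxia. The log2 fold change of this row was 0.48 with no overlap (adjusted p = 0.390, limma).

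The 2 genes whose groups did not overlap, Cdkn2b and Ccnd1, were both lower in hypoxia, where 14.5% of all genes were without overlap in that direction, 1.87% in the other and 16.3% in either. The median gene of each array also had no overlap and was lower in hypoxia, so the count was repeated with each array centred on its median gene, a choice made after seeing the values. Cdkn2b remained without overlap, at 2.31 to 2.51 above the array's median gene in normoxia and 1.53 to 2.28 in hypoxia. It was then the only one of the 9, against 3.53% of all genes lower in hypoxia and 4.38% higher. Its log2 fold change was then -0.33 (adjusted p = 0.497, limma), against a median of -0.0028 over all genes. Ccnd1 then overlapped, at 3.87 to 4.08 in normoxia and 3.72 to 4.05 in hypoxia. With this centring the log2 fold change of Ccnd1 was -0.06 (adjusted p = 0.887, limma).

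Over the 74 rows that passed the filter, 51 had a negative log2 fold change (68.9%, against 65.5% of all rows that passed) and 23 a positive one. The groups did not overlap in 6 rows lower in hypoxia (8.11%, against 6.75% of all rows) and in 3 rows higher (4.05%, against 2.24%). At an unadjusted p under 0.05 there were 8 rows (10.8%, against 13.6% of all rows), and 0 passed after adjustment over all 191376 rows, where 0.179% of rows were called. Of all 84 rows, 21 had a mean that did not lie above 95% of the receptor rows, and 10 of those 21 were below the filter.

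**Figure D3:**
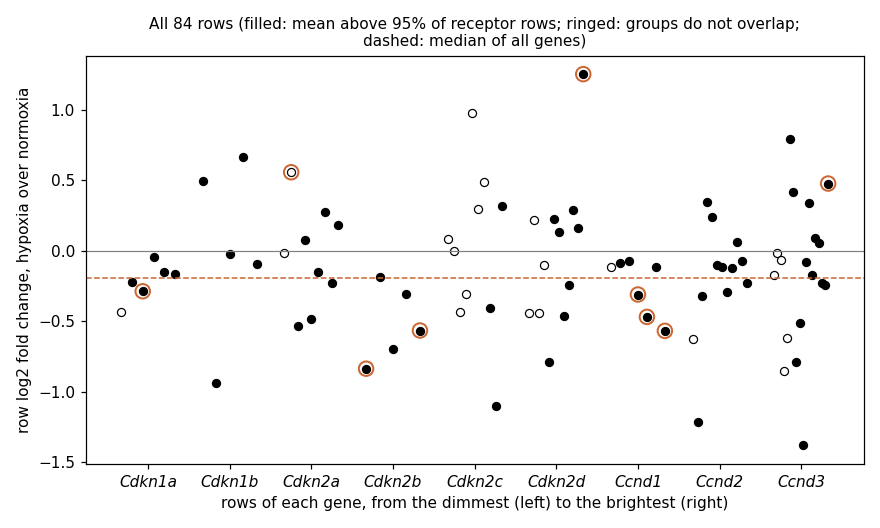
Log2 fold change, hypoxia over normoxia (vertical axis), of each of the 84 rows, ordered within each gene from the dimmest to the brightest row. Filled points have a mean above 95% of receptor rows, rings mark rows whose groups do not overlap, and the dashed line is the median of all genes. The rows of Cdkn1a, Cdkn2b and Ccnd1 are all negative, while those of the other genes lie on both sides of 0. Of all rows that passed the filter, 65.5% were negative.

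The genes of one family were compared directly by testing the difference of their values on each array, which removes a shift common to both. There were 10 such pairs, each with an exact two-sided permutation test and p-values adjusted over the 10. Cdkn2b differed from Cdkn2c by -0.34 in log2 fold change (exact p = 0.0286, adjusted p = 0.286) and Cdkn2a differed from Cdkn2b by 0.48 (exact p = 0.0571, adjusted p = 0.286). These were the lowest p-values, and no pair passed the threshold. The test could hardly pass, since at least 6 of the 10 pairs would have had to reach the smallest exact p for any adjusted p to fall under 0.05. Among the D cyclins the differences were -0.04 for Ccnd1 over Ccnd2, -0.07 for Ccnd1 over Ccnd3 and -0.02 for Ccnd2 over Ccnd3 (exact p = 0.8 to 0.857, adjusted p = 0.857), with SDs between arrays of 0.09 to 0.32 for these differences. The difference of Cdkn1a from Cdkn1b was -0.24 (exact p = 0.4, adjusted p = 0.857).

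The genes that act with and after these 9 were taken from lists on the pathway. Among the partners, 9 genes for the G1 kinases, the E cyclins and the kinase-activating complex were tested, and 0 passed (median -0.19, range -0.55 to 0.13, against -0.19 over all genes). The lowest p belonged to Ccne1, cyclin E1, at 4.88 in normoxia and 4.34 in hypoxia (log2 fold change -0.55, adjusted p = 0.0796, limma). Cdk4, the partner of the D cyclins, stood at -0.23 (adjusted p = 0.261). Of the 13 pocket proteins and E2F factors 0 passed (median -0.13), with the lowest p for E2f8, a repressor of the family (-0.59, adjusted p = 0.0541), and for Tfdp1, the E2F dimer partner (-0.33, adjusted p = 0.135). Of 2 further genes with the symbol of CDK inhibitors, Cdkn3 stood at -0.30 (adjusted p = 0.197) and Cdkn1c, which encodes p57, at 0.14 (adjusted p = 0.676).

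Genes for DNA synthesis that E2F switches on had the lowest median of the pathway lists. Of 14 S-phase genes tested, 2 were lower in hypoxia after adjustment and 0 were higher, against 0.796% and 0.531% of all genes. At an unadjusted p under 0.05, 11 were lower (against 20.4% of all genes). All 14 had negative log2 fold changes (against 75.7% of all genes), with a median of -0.52 against -0.19 over all genes. Mcm2, a subunit of the replicative helicase, went from 4.27 to 3.49 (-0.78 ± 0.13 SE, adjusted p = 0.0303, limma). Tk1, the thymidine kinase of S phase, went from 4.74 to 4.06 (-0.68 ± 0.13 SE, adjusted p = 0.0464). Among the uncalled members, Pcna, the sliding clamp, was at -0.33 (adjusted p = 0.270) and Rrm1, of ribonucleotide reductase, at -0.55 (adjusted p = 0.109). The count was 0 without any 1 of 7 arrays and 1 without hypoxia replicate 4, while the list median stayed between -0.56 and -0.47. It was 4 with trend and robust eBayes and 3 with array weights. It was 0 when arrays were scaled by quantiles, by cyclic loess or to their median gene, with list medians of -0.42, -0.31 and -0.33. The medians over all genes were then -0.11, -0.0092 and -0.0028. The count was also 0 with relative ranks, the median of rows, the brightest row and the replicate number as a block. It stayed at 2 without the row filter and with a stricter one.

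The 14 p53 targets other than Cdkn1a had 0 calls, 6 genes lower at an unadjusted p under 0.05 (against 20.4% of all genes) and a median of -0.36, against -0.19 over all genes and -0.22 for Cdkn1a. Scaling by cyclic loess or centring on the median gene moved the list median to -0.20 and -0.17. The medians over all genes then moved as well, to -0.0092 and -0.0028. Sesn2, a stress-induced sestrin, was at -0.49 (adjusted p = 0.0843, limma) and Aen, a nuclease, at -0.47 (adjusted p = 0.0983). Among 13 genes for the turnover of the inhibitors and D cyclins 0 passed (median -0.21). The lowest p-values were those of Fbxo31, a ubiquitin ligase component that targets cyclin D1 (-0.54, adjusted p = 0.106), and Cks1b, a cofactor in p27 degradation (-0.39, adjusted p = 0.13). Among 19 transcription factors and chromatin proteins known to act on these genes 0 passed (median -0.16), with Ets1, known in human cells to activate p16 transcription, at -0.59 (adjusted p = 0.0687) and Smad3, the TGF-beta effector, at -0.39 (adjusted p = 0.136). The 8 reference genes had a median of -0.07, with 0 calls and 2 lower at an unadjusted p under 0.05, Sdha and Gusb, where 20.4% of all genes were.

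**Figure D4:**
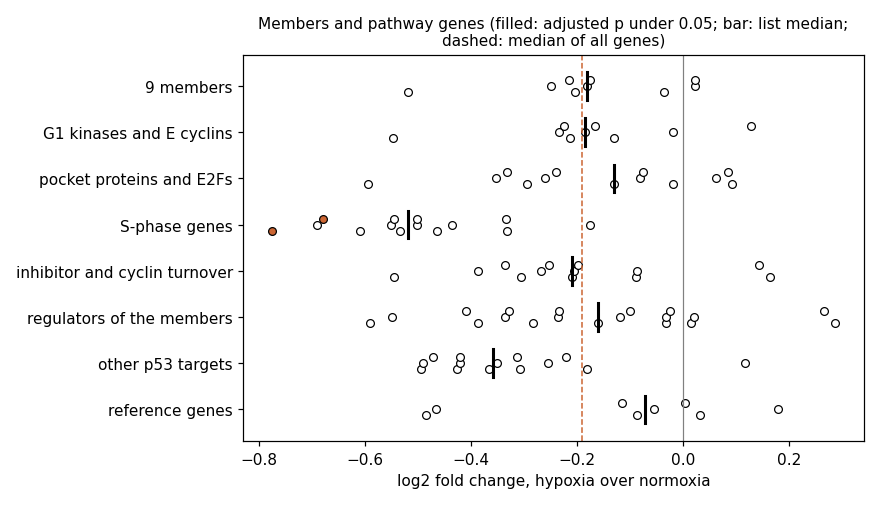
Log2 fold change, hypoxia over normoxia (horizontal axis), of the 9 genes and of the pathway and reference genes tested, one point per gene. Filled points passed the adjusted threshold in limma, short bars are list medians and the dashed line is the median of all genes. The only filled points are 2 S-phase genes, Mcm2 and Tk1, and the median of the 9 members lies at the dashed line.

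For the gene with the lowest p in each family, the genes most like it were those with the highest Pearson correlation over the 8 arrays, given as a description, since all values share the same arrays and their shift between groups. Cdkn1a was followed most closely by Ntmt1 (0.966), Dcp2 (0.962), Stk19 (0.957) and Ubfd1 (0.953). The nearest to Cdkn2b were AU040320, Akt1s1, Cmip and Iqcg (all 0.982). The nearest to Ccnd1 were Cyb561d2 (0.984), Ndfip2 (0.982), Cox18 (0.976) and Eml6 (0.973). None of these 12 genes passed the test between groups.

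**Figure D5:**
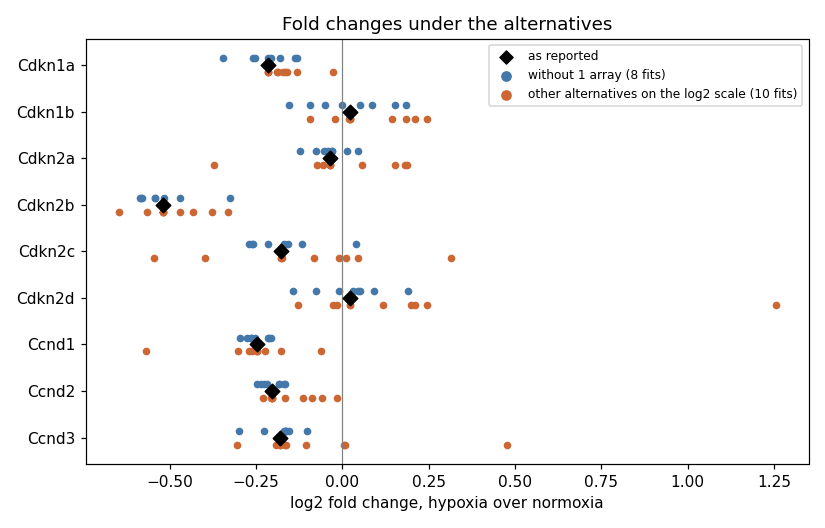
Log2 fold change, hypoxia over normoxia (horizontal axis), of each of the 9 genes as reported (diamonds), in 8 fits that each leave out 1 array (blue) and in 10 other alternatives on the log2 scale (orange). Cdkn1a, Cdkn2b, Ccnd1 and Ccnd2 stay below 0 throughout, while Cdkn1b, Cdkn2a, Cdkn2c, Cdkn2d and Ccnd3 have values on both sides.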

How the data were processed

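Per the labels, RNA of 8 MEF cultures (4 hypoxia, 4 normoxia) was hybridised to 1-colour exon arrays. The methods give more replicates per condition than the labels, and the labels were followed. The authors deposited linear intensity values for 641130 rows. How background, normalization and summarization produced them is not given in the sources used here, and the values were used as deposited, as log2 without a pseudocount. Array number limits the precision.

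Of all rows, 48% named 1 gene in the platform annotation, and symbols were updated through RefSeq (17794 current, 3985 updated, 63 kept). A gene value was the mean log2 over rows naming that gene alone with a mean at or above the table median (2.36), with a median of 7 rows per gene. This average hides differences between exons. The test was limma 3.58.1 (lmFit, eBayes, no covariates) in R 4.3.3, with Benjamini-Hochberg adjustment over 18848 genes or 191376 rows. Its steps were run on simulated data with independent noise and no shift common to all genes, unlike these arrays. Two-sided exact permutation tests covered the 9 genes and 10 pairs. Alternatives covered scaling, relative ranks, row filters and summaries, eBayes options, array weights, a replicate block and leaving out each array.

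The members and lists were chosen with earlier results of these data known, so no count over them is independent evidence. Named genes were all members, up to 4 called genes (lowest p first) and 2 bright uncalled genes per pathway list, or the 2 with the lowest p where none was called, and the 4 most correlated genes for 1 member per family. Rows and arrays singled out were chosen after their values were seen. The sources used here name neither scan dates nor batches, and none was tested. Figures were drawn with matplotlib 3.10.9.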

Additional observations from a re-analysis of the deposited data

Results flagged for a closer look

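In 2 of 18 groups of 4 arrays (9 genes, both conditions) 1 array stood far from the others by Dixon's criterion for 4 samples (the gap to the nearest array over the range), which chance alone gives in about 5% of groups. Cdkn2b in hypoxia replicate 4 was at 5.33, with the nearest hypoxia array at 6.09 and a ratio of 0.976. Ccnd3 in normoxia replicate 2 was at 5.15, with the nearest normoxia array at 5.32 and a ratio of 0.882.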

How the results depend on the processing

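None of the 9 genes was called under any of 19 alternatives (lowest adjusted p = 0.109, Cdkn2b in limma with trend and robust eBayes). The brightest row moved Cdkn2d from 0.02 to 1.26 (adjusted p = 0.171). The pairs, recomputed under 12 alternatives, also had no adjusted p under 0.05, but that says nothing of stability, because the exact tests could hardly pass. Cdkn1a, Cdkn2b, Ccnd1 and Ccnd2 kept their sign in all 19. The other 5 did not, and the cause was not tested. With the median of rows Cdkn1b was at -0.0217 and Cdkn2d at -0.13, and Cdkn2a kept its sign at -0.37. With the brightest row Cdkn1b was at -0.0930, Cdkn2a at 0.18, Cdkn2c at 0.32 and Ccnd3 at 0.48. Scaling moved the median of all genes from -0.19 to -0.11 (quantiles), -0.0092 (cyclic loess) and -0.0028 (centring on the median gene). Cdkn2a then was at 0.0574, 0.19 and 0.15, and under the last 2 of these Cdkn2c was at 0.0443 and 0.0121 and Ccnd3 at 0.00484 and 0.00767. On relative ranks (0 to 100 points) Cdkn2a was at 0.27 and Cdkn2d at -0.19. Cdkn2d was at -0.0155 without the filter and at -0.0260 with array weights. Of the pairs, Cdkn2a minus Cdkn2c was at -0.0278 and Cdkn2c minus Cdkn2d at 0.0069 without the filter, and Ccnd1 minus Ccnd3 was at 0.0033 and Ccnd2 minus Ccnd3 at 0.22 with the median of rows.

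Leaving out each array in turn gave -0.35 to -0.13 for Cdkn1a, -0.15 to 0.18 for Cdkn1b, -0.12 to 0.0466 for Cdkn2a, -0.59 to -0.32 for Cdkn2b, -0.27 to 0.0413 for Cdkn2c, -0.14 to 0.19 for Cdkn2d, -0.30 to -0.21 for Ccnd1, -0.25 to -0.16 for Ccnd2 and -0.30 to -0.10 for Ccnd3. The pairs ran from -0.41 to -0.06 for Cdkn1a minus Cdkn1b, 0.29 to 0.60 for Cdkn2a minus Cdkn2b, -0.0717 to 0.27 for Cdkn2a minus Cdkn2c, -0.18 to 0.11 for Cdkn2a minus Cdkn2d, -0.42 to -0.21 for Cdkn2b minus Cdkn2c, -0.78 to -0.18 for Cdkn2b minus Cdkn2d, -0.45 to 0.18 for Cdkn2c minus Cdkn2d, -0.13 to 0.0391 for Ccnd1 minus Ccnd2, -0.14 to 0.0914 for Ccnd1 minus Ccnd3 and -0.12 to 0.0558 for Ccnd2 minus Ccnd3.

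The count of all genes called was less stable. As reported it was 100 higher and 150 lower (40% higher). Without 1 array it was 54 to 74 higher and 7 to 51 lower. The genes called lower were 45 with quantiles, 33 with cyclic loess, 8 with centring, 18 with relative ranks, 259 without the filter, 234 with a stricter row filter (the upper 25% of rows), 25 with the median of rows, 18 with the brightest row, 417 with trend and robust eBayes and 257 with array weights. The genes called higher were 172 with cyclic loess, 40 with relative ranks and 217 without the filter, and the share of higher calls was 73.5% with quantiles, 83.9% with cyclic loess and 94.6% with centring. Arrays of the same number showed no sign of deviating together (correlations of 0.07, -0.12, 0.05 and -0.01). This does not exclude that arrays of the same number were handled together, which the labels do not state. With the replicate number as a block 34 genes were called higher and 3 lower, 0 rows were called in place of 343, and no member was called.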
